A study of Mus musculus with 2 samples.

Results

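Zbp1 and 7 other sensors and adaptors of double-stranded nucleic acid (Ddx58, Ifih1, Dhx58, Eif2ak2, Adar, Tlr3 and Mavs) were followed across cell classes in embryonic mouse intestine. The 8 genes were listed by name, out of 52636 gene IDs in the count matrices. The data were single-cell RNA counts of 2 embryos at stage E18.5, late gestation, on the C57BL/6 background, 1 embryo and 1 library per genotype. The first embryo was Mlkl -/- (called Mlkl-null here) and is the comparison embryo. The second was Casp8 C362A/C362A Mlkl -/- (called Casp8-mutant here), homozygous for a substitution of the catalytic cysteine of caspase-8 and lacking Mlkl as well. Both embryos therefore carried the Mlkl deletion, and neither had wild-type Mlkl. No label names a transgene, a Cre driver or a treatment. Mlkl itself had 1 UMI in the Mlkl-null and 13 UMIs in the Casp8-mutant cells (a UMI is a unique molecular identifier, 1 counted RNA molecule). Reads at the 3' end of a transcript check neither the Mlkl deletion, whose position the labels do not give, nor the Casp8 substitution. With 1 embryo per genotype no difference could be tested against the spread between animals, and genotype and embryo cannot be told apart. The intervals below are exact 95% intervals that cover counting error only.

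Double-stranded RNA and Z-form nucleic acid are bound in the cell by several families of proteins. RIG-I (encoded by Ddx58) and MDA5 (Ifih1) are helicases that signal through the mitochondrial adaptor MAVS to switch on interferon genes, and LGP2 (Dhx58) is a relative that lacks their signalling domain. PKR (Eif2ak2) is a kinase that stops translation through eIF2 alpha, ADAR1 (Adar) is an editing enzyme that turns adenosine to inosine in double-stranded RNA, and TLR3 reads it in endosomes. ZBP1 binds Z-form nucleic acid and recruits RIPK3, which through MLKL drives necroptosis, a lytic cell death that caspase-8 holds back. Several of these genes are themselves known as interferon-induced genes.

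The interferon-stimulated response element (ISRE) is a promoter element of interferon-induced genes, and its core was searched in the members' promoters because most of them moved together. RefSeq promoters (build GRCm38.p6, 250 bases before to 50 after the transcript start) were matched for 6 of the 8 genes. Zbp1 and Dhx58 had no entry. The core searched was GAAANNGAAA on either strand, which includes its reverse complement TTTCNNTTTC. The 6 genes have 8 promoter windows in all, and the core was found in 3 of these windows, each of a different gene. Counted per promoter as well, it was found in 3.44% of all 32851 promoters (1131). The windows that hold it are shown 5′ to 3′ on the strand of the gene, with the core in capitals.
Ddx58: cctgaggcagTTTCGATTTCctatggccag
Ifih1: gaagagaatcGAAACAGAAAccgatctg
Eif2ak2: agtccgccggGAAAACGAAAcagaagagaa
The windows lie on the minus strand at chr4:40239804-40239833, chr2:62646206-62646233 and chr17:78882535-78882564, and the cores begin 3, 33 and 19 bases into the transcript. No core was found in the promoter windows of Tlr3 and Mavs or in the 3 windows of Adar. A second motif, the gamma-activated site core TTCNNNGAA, which reads the same on both strands, was found for Eif2ak2 and for 1 of the 3 promoters of Adar, against 8.30% of all promoters. In that Adar window the last bases after the start were not found in an annotated Adar transcript, unlike those of the other members' windows in their own genes. A match of letters in a window is a description and shows no binding.

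In the mm10 annotation (GENCODE M21) Zbp1 (ENSMUSG00000027514) spans chr2:173206612-173218923 on the minus strand. No other annotated gene overlaps Zbp1, Ddx58, Ifih1 or Mavs. Adar overlaps Chrnb2 (13 UMIs in both libraries together), Eif2ak2 overlaps Gm26637 (11 UMIs), Tlr3 overlaps Gm45542 (3 UMIs) and Dhx58 overlaps Dhx58os (0 UMIs), each on the opposite strand. The sources used here do not give whether counting used strand, so reads of these pairs may not be told apart.

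The Mlkl-null library held 1478 barcodes and 6290008 UMIs, and the Casp8-mutant library 1014 barcodes and 2804929 UMIs. After cells with fewer than 500 genes and called doublets were left out, 1435 and 873 cells remained, with medians of 3707 and 1957 UMIs. The libraries shared 2 barcodes. Cells were clustered without the 8 genes and without a fixed list of interferon-induced genes. Genes outside that list were not left out, so the clusters may still reflect an interferon response. Clusters were named from marker lists: epithelial-like (1183 Mlkl-null and 571 Casp8-mutant cells), myeloid-like (61 and 109), stromal-like (63 and 58), endocrine-like (36 and 34) and smaller classes. The 18 epithelial markers that gave the epithelial-like class its name summed to 49080 UMIs per 1000000 UMIs in its Mlkl-null and 19072 in its Casp8-mutant cells, beside 7190 and 3872 in myeloid-like cells. The libraries nevertheless stood apart: the epithelial-like cells of the Mlkl-null embryo lay mostly in clusters 2, 3, 5, 6, 10, 11 and 16 and those of the Casp8-mutant embryo in clusters 9, 15, 19 and 21. Myeloid-like cells were likewise mostly in cluster 14 (51 Mlkl-null cells) and cluster 17 (10 and 109 cells). Barcodes dominated by haemoglobin, 52 and 123 of them, were also summed on their own as a measure of free RNA, and 14 and 2 of these are among the retained cells as well.

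Of the 39 Zbp1 UMIs in the Mlkl-null cells, 25 lay in the 61 myeloid-like cells, whereas the Casp8-mutant embryo had 407 Zbp1 UMIs, found in every named class. In epithelial-like cells 13 UMIs were counted in the Mlkl-null library and 304 in the Casp8-mutant library. As levels these are 2.44 (1.30 to 4.18) and 155 (138 to 173) CPM, the UMIs of the gene per 1000000 UMIs of the class. CPM is the unit of all levels below. With 0.5 UMI added to each count, the Casp8-mutant level was 61.1 times the Mlkl-null level (36.5 to 120), and ratios between the embryos are given in this direction. A Zbp1 UMI was present in 13 of 1183 Mlkl-null epithelial-like cells (1.10%) and in 193 of 571 Casp8-mutant ones (33.8%, Clopper-Pearson interval 29.9 to 37.8). No Mlkl-null epithelial-like cell held more than 1 Zbp1 UMI, whereas 121 Casp8-mutant cells held 1, 48 held 2 and 24 held 3 or more, up to 7.

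In stromal-like cells Zbp1 went from 1 UMI (3.83 CPM) to 37 UMIs (233 CPM), a ratio of 41.1 with a wide interval of 10.3 to 2466. The gene was found in 1 of 63 Mlkl-null and 19 of 58 Casp8-mutant stromal-like cells. The make-up of this class differed: 54 of the 63 Mlkl-null cells were in smooth-muscle-marked cluster 1, against 33 of the 58 Casp8-mutant cells, and smooth muscle markers summed to 9387 and 1327 CPM. Granulocyte markers summed to 6 UMIs in the Mlkl-null and 487 UMIs (3063 CPM) in the Casp8-mutant cells of this class and erythroid markers to 2388 and 9580 CPM, and the part of these differences in the ratio was not tested. Myeloid-like cells, named from macrophage markers, differed less: 25 UMIs (135 CPM) and 38 UMIs (199 CPM), a ratio of 1.47 whose interval of 0.87 to 2.55 includes 1. The shares of myeloid-like cells with a UMI were 27.9% and 27.5%. The embryos' myeloid-like cells lay mostly in different clusters: 24 of the 25 Mlkl-null UMIs came from cluster 14, which held no Casp8-mutant cell. In cluster 17 the counts were 1 UMI in 10 Mlkl-null cells (36.9 CPM, 0.93 to 206) and 38 UMIs in 109 Casp8-mutant cells (199, 141 to 274). Within the Mlkl-null embryo the myeloid-like level was 55.3 times the epithelial-like level (27.2 to 118). Within the Casp8-mutant embryo that ratio was 1.29 (0.89 to 1.81). The epithelial-like to myeloid-like contrast present in the comparison embryo was thus not detectable in the Casp8-mutant embryo at this depth. The part of the different myeloid-like clusters in this was not tested.

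The other classes were small, and in the Mlkl-null embryo none of them held a Zbp1 UMI. The exact upper limit for a count of 0 there is 25.2 CPM in endocrine-like, 30.4 in enteric-neuron-like and 121 in lymphoid-like cells. In the Casp8-mutant embryo the order from the highest level, leaving out 2 pancreatic-acinar-like cells, was enteric-neuron-like (247, 4 UMIs in 10 cells), stromal-like (233), myeloid-like (199), epithelial-like (155), lymphoid-like (122, 10 UMIs), granulocyte-like (96.9, 6 UMIs), endocrine-like (47.6, 3 UMIs), haemoglobin-dominated (27.4, 5 UMIs) and erythroid-like (23.3, 1 UMI). The intervals of neighbours in this order overlap. Haemoglobin RNA lowers the levels of other genes in the last 2 sets. Farther apart, the stromal-like level was 1.5 times the epithelial-like level (1.04 to 2.12), and the endocrine-like level was 3.26-fold lower than the epithelial-like level (1.10 to 15.9). Both pancreatic-acinar-like cells of that embryo held 1 Zbp1 UMI each.

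**Figure D1:**
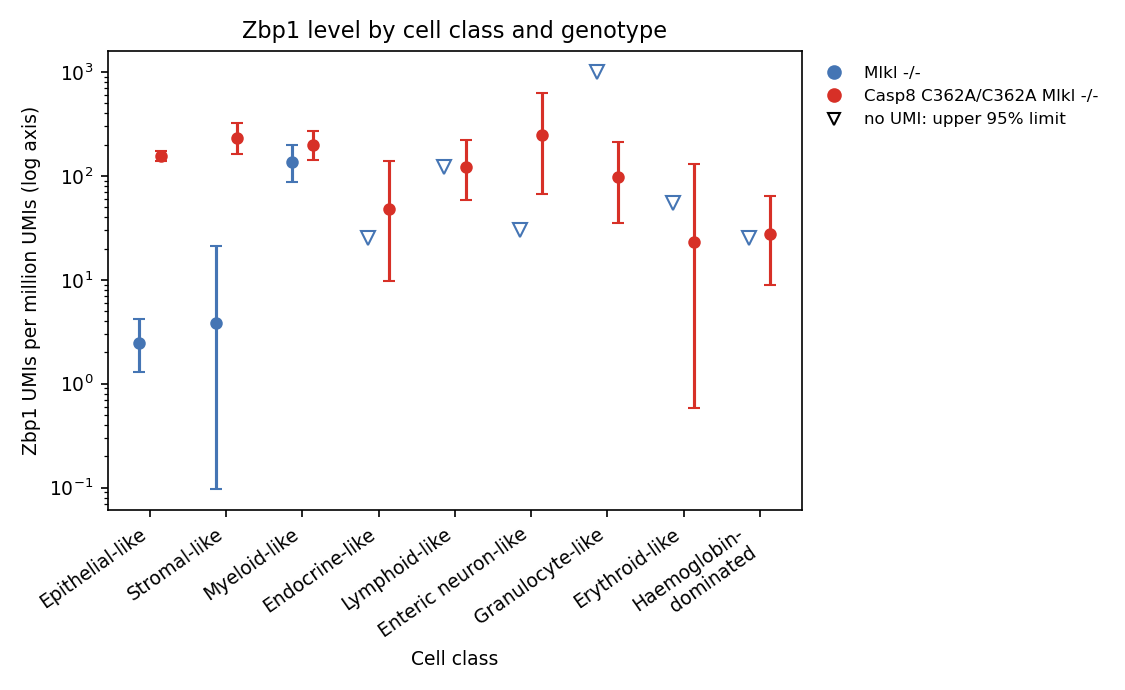
Zbp1 UMIs per 1000000 UMIs of each cell class (log axis) in the Mlkl -/- and the Casp8 C362A/C362A Mlkl -/- library, 1 embryo each. Points are levels, bars exact 95% Poisson intervals, and open triangles the upper limit where no UMI was counted. The libraries lie far apart in epithelial-like cells (2.44 and 155) and stromal-like cells (3.83 and 233) and close together in myeloid-like cells (135 and 199). The myeloid-like cells of the embryos lay mostly in different clusters.

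Haemoglobin-dominated barcodes, which hold mostly red cell RNA and should lack Zbp1, are a measure of free RNA. They held a Zbp1 UMI in 0 of 52 Mlkl-null (which allows up to 6.85%) and 5 of 123 Casp8-mutant cases (4.07%), at median depths of 2734 and 1364 UMIs. The Casp8-mutant epithelial-like cells had a median of 2513 UMIs. With each cell thinned to 1000 UMIs, the Zbp1 share was 16.2% of Casp8-mutant epithelial-like cells (91 of 561, 10 shallower cells left out), 3.25% of haemoglobin-dominated barcodes (4 of 123) and 0.17% of Mlkl-null epithelial-like cells (2 of 1183). The Zbp1 level in Casp8-mutant haemoglobin-dominated barcodes was 5.67-fold lower than in epithelial-like cells (2.40 to 17.6). By definition most UMIs of these barcodes are haemoglobin, which lowers the level and the thinned share of any other gene. These contrasts therefore cannot show how far Zbp1 in epithelial-like cells stood above free RNA. Levels per UMI outside haemoglobin were not computed. Markers of blood cells moved with genotype in the epithelial-like class: the 10 granulocyte markers summed to 22.0 CPM in the Mlkl-null cells (Csf3r and Cxcr2 at 0) and to 3269 in the Casp8-mutant cells (all 10 found). The 8 erythroid markers, all found in both, summed to 3022 and 10680, and the 12 myeloid markers, all found in both, to 288 and 677. In myeloid-like cells the granulocyte markers summed to 32.4 and 3976 and the erythroid markers to 3065 and 17364. The part of these markers in the ratios between the embryos was not tested.

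Zbp1 was spread over the 4 main epithelial-like clusters of the Casp8-mutant embryo rather than held by 1 of them. Cluster 15 carried cycling markers (6 of 12 listed, beside 11 of 12 in Mlkl-null cluster 3), cluster 9 goblet markers (8 of 9) and cluster 21 distal enterocyte markers (6 of 8). Cluster 19 met no sub-type list and was rich in small nuclear RNAs. The level was 120 (98.5 to 146) in cycling cluster 15, 156 (119 to 201) in goblet cluster 9, 144 (105 to 193) in distal enterocyte cluster 21 and 241 (195 to 295) in cluster 19. The first 3 intervals overlap, and that of cluster 19 lies above those of clusters 15 and 21. At full depth 42.4% of cycling, 32.7% of goblet, 20.4% of distal enterocyte and 43.7% of cluster 19 cells held a Zbp1 UMI. Median depths differed between these clusters (5500 UMIs in cluster 15 and 1625 in cluster 21). Thinned to 1000 UMIs per cell, the shares were 17.3%, 9.73%, 12.1% and 26.6% in the same order.

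The share of cells in which Zbp1 was seen rose with depth. Among Casp8-mutant epithelial-like cells split into 4 groups of like size by total UMIs, it was 18.9%, 28.7%, 34.97% and 52.8% from the shallowest group (976 to 1540 UMIs) to the deepest (4441 to 17121 UMIs). The level did not follow that order, at 175, 206, 140 and 145. A cell without a Zbp1 UMI is therefore not shown to lack the transcript. The 2 stromal-like clusters differed: Zbp1 was at 275 (185 to 392) in cluster 0, in which all 7 mesothelial markers were found, and in 13 of its 25 Casp8-mutant cells, against 141 (56.5 to 290) and 6 of 33 in smooth-muscle-marked cluster 1. These intervals overlap.

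Matched by sub-type, Zbp1 was higher in the Casp8-mutant cells in each of the 3 epithelial sub-types that both embryos held. In goblet-marked clusters 2 and 9 (87 Mlkl-null and 113 Casp8-mutant cells) it went from 2 to 59 UMIs, a ratio of 39.4 (12.9 to 413). In distal-enterocyte-marked cells (cluster 6 with 277 Mlkl-null and cluster 21 with 181 Casp8-mutant cells) it went from 1 to 45 UMIs, a ratio of 114 (28.9 to 6830). In cycling-marked clusters 3 and 15 (131 and 151 cells) no UMI was counted in the Mlkl-null and 106 in the Casp8-mutant cells, so that the Casp8-mutant level was at least 39.8-fold higher, with 3 counts allowed for the 0, and the exact interval of the ratio begins at 31.8. The remaining 688 Mlkl-null cells took the enterocyte name and held 10 Zbp1 UMIs, and no Casp8-mutant cluster took that name. Cluster 21, named distal enterocyte, also carried 5 of the 10 enterocyte markers, as many as Mlkl-null enterocyte cluster 5.

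The RIG-I-like receptors were all higher in Casp8-mutant epithelial-like cells. Ddx58 had 91 UMIs (17.1 CPM) in the Mlkl-null and 74 (37.7) in the Casp8-mutant cells, a ratio of 2.21 (1.60 to 3.03). Ifih1 had 26 (4.89) and 80 (40.8), a ratio of 8.23 (5.30 to 13.5). Dhx58 had 7 (1.32) and 70 (35.7), a ratio of 25.5 (12.5 to 69.9). The intervals of the 3 ratios do not overlap between Ddx58 and either of the other genes.

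The transcripts of PKR and ADAR1 were higher as well. Eif2ak2 went from 176 UMIs (33.1 CPM) to 154 (78.5), so its level was 2.37 times as high (1.90 to 2.96). For Adar the counts were 121 (22.8) and 147 (74.9), with a ratio of 3.29 (2.57 to 4.22). Tlr3 was at the edge of detection, with 1 UMI in the Mlkl-null and 13 UMIs in 13 different cells of the Casp8-mutant epithelium (ratio 24.4, 5.29 to 1498). It fell under the minimum of 20 UMIs set for a call, and no Tlr3 UMI was seen in myeloid-like or stromal-like cells of either embryo. Both libraries held Eif2ak2 and Adar in many epithelial-like cells, 13.5% and 21.7% for Eif2ak2 and 9.89% and 22.4% for Adar.

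Mavs, the adaptor that RIG-I and MDA5 share, was the 1 member lower in the Casp8-mutant epithelium. It had 176 UMIs (33.1 CPM) in the Mlkl-null and 30 (15.3) in the Casp8-mutant cells, 2.13-fold lower (1.46 to 3.30). The share of cells with a UMI was 13.7% and 4.90%. With each cell thinned to 1000 UMIs the log2 ratio was -0.47, short of the 1.5-fold needed for a call. Within matched sub-types each interval included 1: 1.59-fold lower in goblet-marked (0.58 to 6.00), 1.45-fold lower in distal-enterocyte-marked (0.78 to 3.16) and 1.12-fold lower in cycling-marked cells (0.48 to 2.75). Mavs differed among Mlkl-null sub-types, from 14.1 CPM in cycling-marked to 52.7 in distal-enterocyte-marked cells. The part of the different sub-type make-up of the 2 libraries in its lower level was not tested.

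Of the 8 members, 7 reached 20 UMIs over both libraries in epithelial-like cells. At a threshold of 1.5-fold 6 were higher (Zbp1, Ddx58, Ifih1, Dhx58, Eif2ak2 and Adar) and 1 was lower (Mavs). Over all 13911 genes measured there, 26.7% were higher and 33.4% lower by that rule. The same counts, 6 and 1, were found over all cells together, where 26.7% of all measured genes were higher and 32.1% lower. The median log2 ratio of the 7 was 1.72, beside -0.17 over all measured genes. Scaling by the median of gene ratios lowered the log2 ratios in epithelial-like cells by 0.12 and those in stromal-like cells by 0.36, and the same 6 and 1 counts were found. In myeloid-like and stromal-like cells 1 member, Zbp1, reached the minimum. It was not called in myeloid-like cells, where 25.8% of genes were called higher and 23.6% lower, and it was called higher in stromal-like cells, where the shares were 20.8% and 31.7%.

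**Figure D2:**
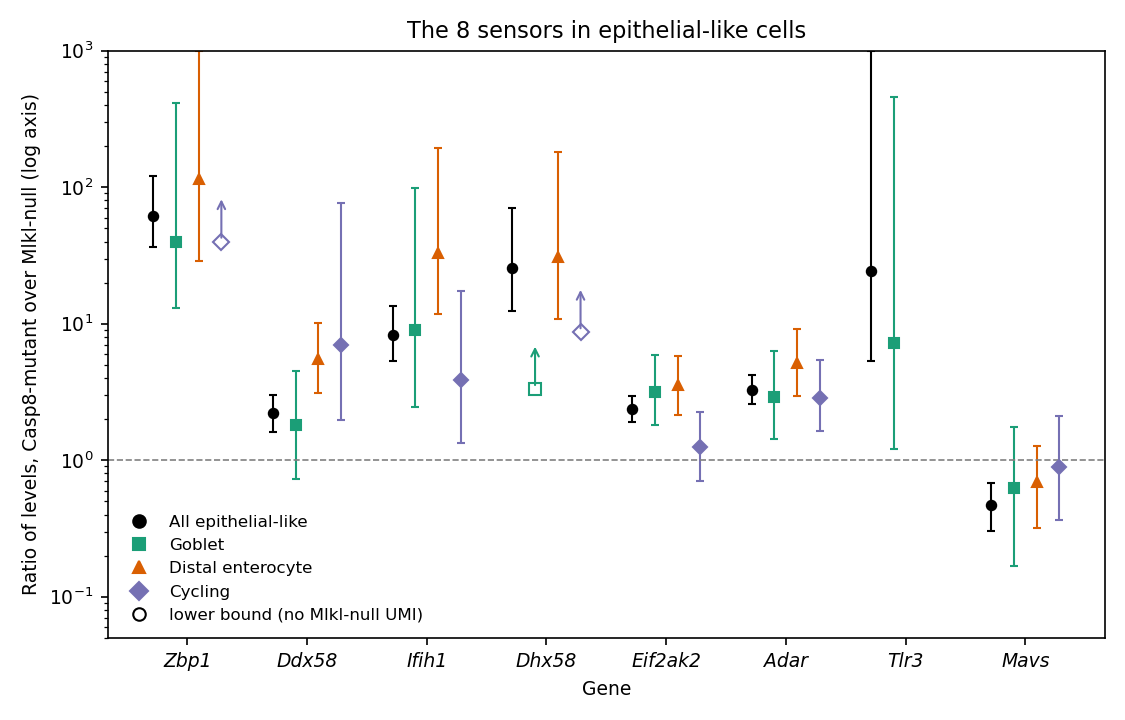
Ratio of levels, Casp8-mutant over Mlkl-null (log axis), of each of the 8 genes in all epithelial-like cells and in 3 marker-matched sub-types. Bars are exact 95% intervals, cut at the edge of the plot, and open symbols with an arrow are lower bounds where the Mlkl-null cells held no UMI. Genes with fewer than 5 UMIs in a set are not drawn. Zbp1 lies above 1 in each set (39.4 in goblet and 114 in distal enterocyte cells), whereas the Mavs sub-type intervals include 1.

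Below the minimum, the counts of the other members in myeloid-like cells were alike in both embryos for Ddx58 (7 and 6 UMIs), Adar (5 and 5) and Eif2ak2 (8 and 11). For Dhx58 the counts were 1 and 8 (ratio 5.5, 1.04 to 345), and Ifih1 had 0 and 3. In stromal-like cells Eif2ak2 had 1 and 9 UMIs (ratio 10.4, 2.05 to 648), Adar 1 and 7 (8.22, 1.48 to 519), Ifih1 0 and 5, Dhx58 0 and 2, and Ddx58 3 and 3. Mavs had 3 and 2 UMIs in myeloid-like and 1 and 0 in stromal-like cells. These counts are too few to order the genes within either class.

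Within the Casp8-mutant epithelium the RIG-I-like receptors differed more than Zbp1 between distal enterocyte cluster 21 and cycling cluster 15. Ddx58 was at 99.1 CPM in distal enterocyte cluster 21 and at 17.0 in cycling cluster 15, a ratio of 5.72 (3.05 to 11.6). Ifih1 was at 95.9 and 17.0 (5.54, 2.94 to 11.3) and Dhx58 at 89.5 and 26.1 (3.42, 1.90 to 6.23). In the Mlkl-null embryo Ddx58 was at 17.9 CPM in distal-enterocyte-marked (21 UMIs) and 2.02 in cycling-marked cells (2 UMIs). The order for Ddx58 was thus the same in both embryos. Ifih1 was at 2.55 and 4.03 in those Mlkl-null cells, from 3 and 4 UMIs. Dhx58 had 3 and 0 UMIs there, and Zbp1 1 and 0. The 3 receptors summed to 89 UMIs (285 CPM) in cluster 21 and 53 UMIs (60.2) in cluster 15, a ratio of 4.71 (3.33 to 6.78). For Zbp1 the same ratio was 1.20 (0.82 to 1.71), from 45 and 106 UMIs, and this interval does not reach that of the receptors. This comparison was added after values were seen. Clusters 21 and 15 had the highest and the lowest summed receptor level of the main epithelial-like clusters (131 in cluster 19 and 81.9 in cluster 9). The intervals do not account for that choice. The clusters were formed without these genes, and the difference was not tested.

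Eif2ak2 was at 109 CPM in cluster 21 and 31.8 in cluster 15 (ratio 3.41, 2.01 to 5.85), and Adar at 106 and 49.96 (2.12, 1.30 to 3.39). Mavs was also higher in the distal enterocyte cluster, at 35.2 and 12.5 (2.82, 1.11 to 7.16). The interferon-induced list of 68 genes, which holds none of the 8, was at 28545 in cluster 21, 22612 in cluster 19, 14062 in cluster 9 and 11705 in cluster 15. Its ratio of cluster 21 over cluster 15 was 2.44 (2.37 to 2.51). Between the embryos Ddx58 was 5.51 times as high in distal-enterocyte-marked cells (3.09 to 10.2) and 1.80 times in goblet-marked cells (0.73 to 4.52). In cycling-marked cells its ratio was 6.98, from 2 and 15 UMIs, with an interval (1.96 to 76.1) that covers that of distal-enterocyte-marked cells. Ifih1 was 32.8 times as high (11.7 to 193) in distal-enterocyte-marked and 3.88 times (1.35 to 17.5) in cycling-marked cells. In goblet-marked cells its ratio was 8.95 (2.44 to 98.3), and these intervals overlap. Dhx58 was 30.6 times as high (10.8 to 180) in distal-enterocyte-marked cells. In cycling-marked cells Dhx58 had 0 and 23 UMIs, at least 8.64-fold higher, with an interval that begins at 6.47. In goblet-marked cells it had 0 and 6 UMIs, at least 3.31-fold higher, with an interval from 1.95. Eif2ak2 was 3.55 times as high (2.16 to 5.84) in distal-enterocyte-marked and 3.19 times (1.81 to 5.94) in goblet-marked cells, and its interval included 1 in cycling-marked cells (1.26, 0.71 to 2.26).

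**Figure D3:**
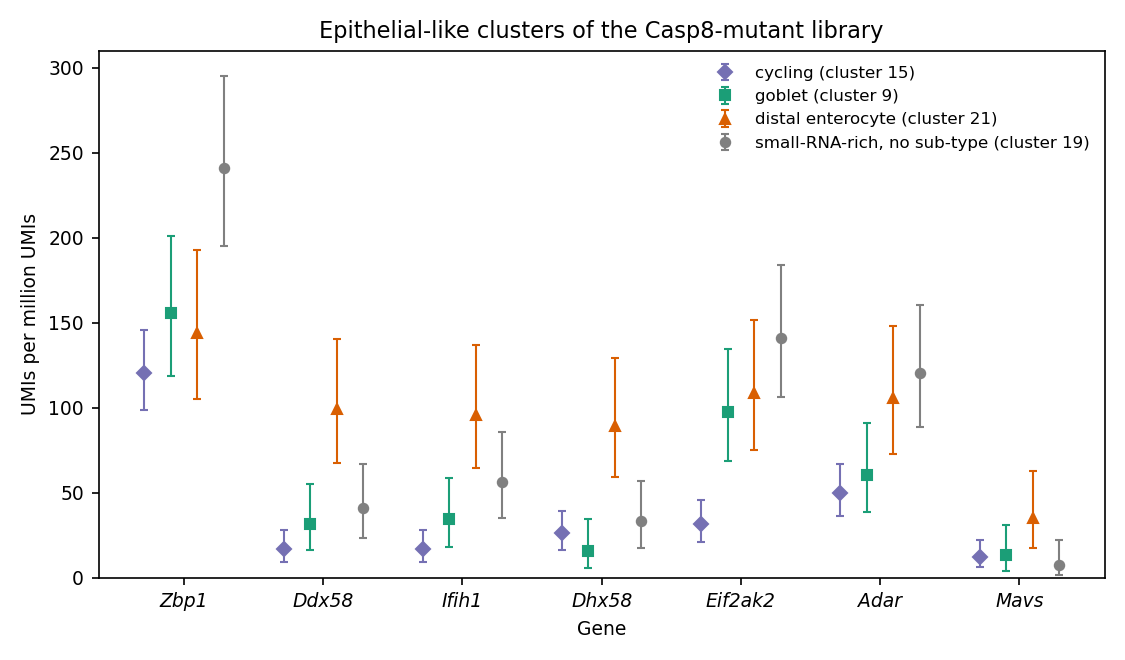
Levels of 7 of the genes (UMIs per 1000000 UMIs, linear axis) in the 4 main epithelial-like clusters of the Casp8-mutant library, with exact 95% Poisson intervals. Levels are to be compared within a gene. Ddx58, Ifih1 and Dhx58 are highest in distal enterocyte cluster 21 (99.1, 95.9 and 89.5), whereas Zbp1 is at 144 there, 120 in the cycling cluster and 241 in cluster 19.

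Whether a Casp8-mutant epithelial cell with Zbp1 also carried the other sensors was read at 1000 UMIs per cell. Of the 91 cells with a Zbp1 UMI, 34.1% held a UMI of any of the other 7 members (24.4 to 44.7), against 29.4% of the 470 cells without one (25.3 to 33.7). The intervals overlap. Ifih1 was present in 8.79% and 5.11% of those cells, Ddx58 in 6.59% and 4.26%, Adar in 10.99% and 10%, Eif2ak2 in 8.79% and 8.51%, Dhx58 in 2.2% and 4.68% and Mavs in 1.10% and 2.34%. All 6 pairs of intervals overlap. Tlr3 was found in 3 of the 91 and 1 of the 470 cells. The interferon-induced list had a median of 20 UMIs per cell with Zbp1 and 19 without. At 2000 UMIs per cell the medians were 32 and 26 (63 and 45 at full depth), and the share with any other member was 41.9% (30.5 to 53.9) and 33.8% (28.2 to 39.9).

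RIPK3 is the kinase that ZBP1 recruits, and Ripk3 was present in 4.396% of the cells with Zbp1 and 5.96% of those without. Casp8 was present in 19.8% and 13.6%. Deeper cells more often hold Zbp1. At full depth the Ripk3 shares were 24.9% of 193 cells with Zbp1 (18.9 to 31.6) and 13.5% of 378 without (10.2 to 17.4). For Casp8 they were 36.3% (29.5 to 43.5) and 24.6% (20.3 to 29.3). Neither pair of full-depth intervals overlaps, and the part of depth in these gaps was not tested. At 2000 UMIs per cell Ripk3 was present in 14.9% of 74 cells with and 7.89% of 266 cells without Zbp1, with overlapping intervals.

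**Figure D4:**
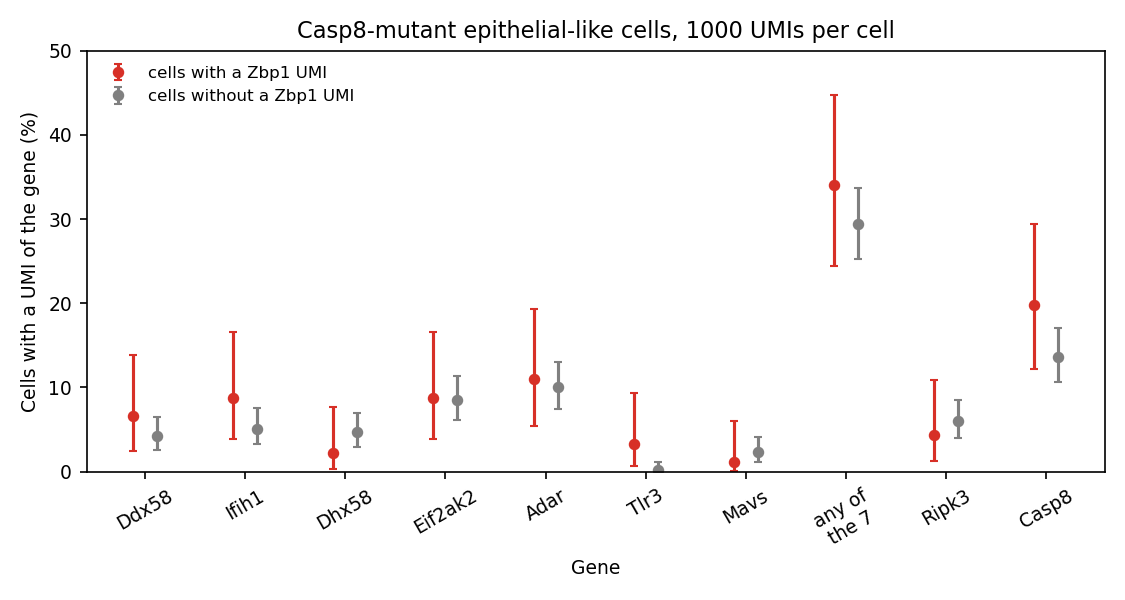
Share of Casp8-mutant epithelial-like cells with a UMI of each gene, among 91 cells with and 470 cells without a Zbp1 UMI, each cell thinned to 1000 UMIs. Bars are Clopper-Pearson 95% intervals. The intervals of cells with and without Zbp1 overlap for each gene drawn, with 34.1% and 29.4% for any of the 7 other members.

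Around Zbp1 in the necroptosis pathway, 5 of the 6 listed genes were measured in epithelial-like cells, with 1 higher and none lower and a median log2 ratio of 0.28. The counts of this and the following lists stand beside 26.7% higher, 33.4% lower and a median of -0.17 over all measured genes. Ripk3 went from 23.3 to 60.7 CPM, a ratio of 2.60 (2.01 to 3.37). Casp8, whose product is catalytically dead in the mutant, was at 70.7 and 105, a ratio of 1.49 (1.25 to 1.76), just short of the threshold. Cflar, the caspase-8 partner cFLIP, had a ratio of 1.22 (0.94 to 1.55). Ripk1 (0.86, 0.61 to 1.19) and the adaptor Fadd (0.71, 0.43 to 1.11) also had intervals that include 1.

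Among 13 further RNA sensors and adaptors, 8 were measured, 4 higher and 3 lower (median log2 ratio 0.11), the lower share being near that over all genes. Ddx60, a helicase that aids RIG-I signalling, had a ratio of 18.8 (13.0 to 29.0), the toll-like receptor adaptor Myd88 3.14 (2.17 to 4.56) and Trim25, a ubiquitin ligase of the RIG-I pathway, 2.68 (2.19 to 3.29). The helicase gene Dhx36 was 1.89-fold lower (1.38 to 2.69) and Prkra, which encodes the PKR activator PACT, 2.45-fold lower (1.4 to 4.93). The list on DNA sensing had 8 of 10 genes measured, 4 higher and none lower (median 0.96). Ifi204, of the family that holds human IFI16, went from 7 to 92 UMIs (33.4, 16.6 to 91.1), the DNA exonuclease gene Trex1 from 35 to 102 (7.83, 5.33 to 12.0), and Sting1, the adaptor of cGAS, from 8 to 13 (4.31, 1.69 to 12.3). Dnase2a (0.81, 0.30 to 1.74) and Rnaseh2b (0.68, 0.45 to 0.97) did not pass the threshold.

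Of the kinases and transcription factors below the sensors all 12 were measured, 3 higher and 1 lower (median log2 ratio 0.23), the higher share being near the 26.7% of all genes. Irf7 went from 37.0 to 565 CPM (15.2, 13.1 to 17.8), Irf1 from 46.5 to 142 (3.06, 2.57 to 3.65) and the kinase gene Ikbke from 17.1 to 29.1 (1.70, 1.20 to 2.39). Traf3, which relays the MAVS signal, was 2.71-fold lower (1.95 to 3.95), and Ikbkg had a ratio of 0.72 (0.43 to 1.11). The list of PKR targets and the integrated stress response had 9 of 9 measured, 2 higher and 2 lower (median -0.13). Ddit3 had a ratio of 1.72 (1.48 to 1.99) and Ppp1r15a, a phosphatase subunit for eIF2 alpha, 1.67 (1.37 to 2.02), while Atf3 stood at 1.41 (1.29 to 1.55). The genes of 2 other eIF2 alpha kinases were lower, Eif2ak3 2.02-fold (1.12 to 4.24) and Eif2ak4 2.65-fold (1.13 to 9.35), opposite to Eif2ak2.

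Interferon transcripts themselves were at or near 0. Of 10 listed interferon genes none reached 20 UMIs. In epithelial-like cells Ifnb1 and Ifnl2 had 1 UMI each and Ifnl3 had 2, all 3 in the Casp8-mutant library, and the other 7 had none in either. Stat2, a transcription factor of the interferon response, had a ratio of 2.36 (1.89 to 2.94) and its partner Irf9 1.84 (1.38 to 2.42). Il10rb, a chain of the lambda interferon receptor, was 1.99-fold lower (1.59 to 2.54) and the receptor kinase gene Tyk2 2.06-fold lower (1.08 to 4.70). Over all 7 lists 53 of 71 genes were measured, 17 higher and 10 lower, with a median log2 ratio of 0.09. The share higher is near the 26.7% over all measured genes, of which 33.4% were lower. Averaging per-cell levels in place of summed counts gave 22 higher and 6 lower.

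**Figure D5:**
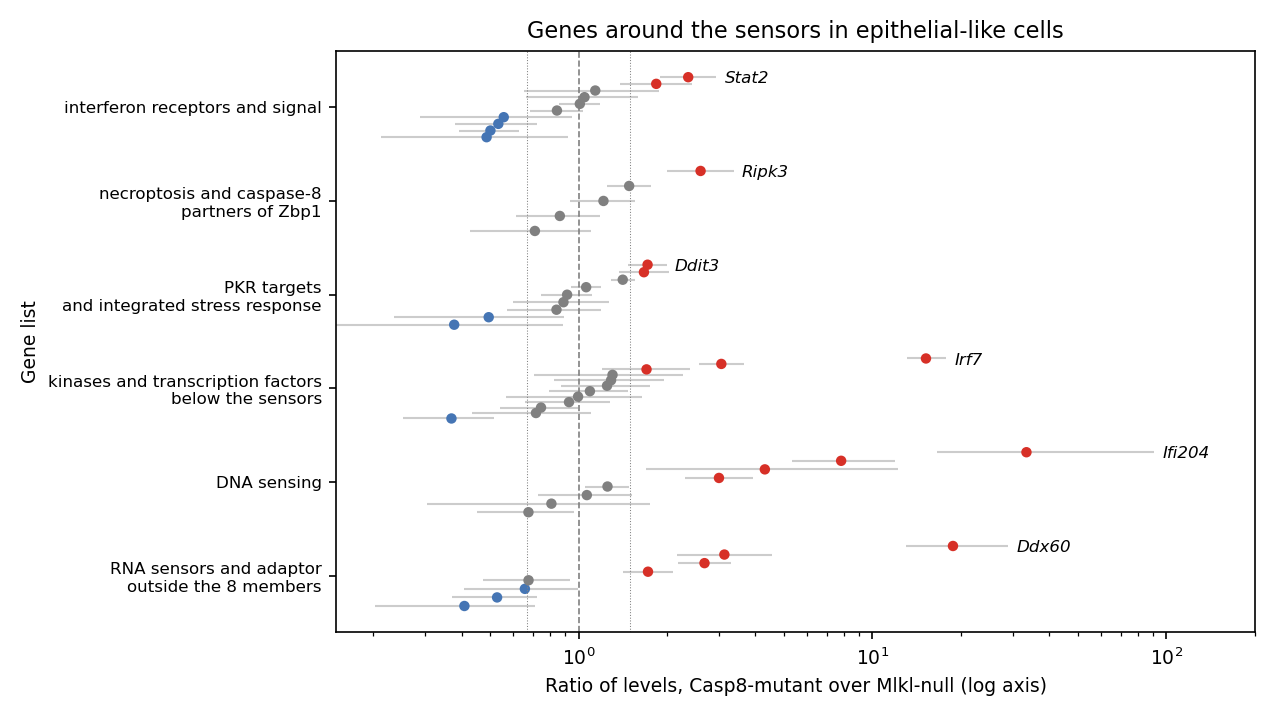
Ratio of levels in epithelial-like cells, Casp8-mutant over Mlkl-null (log axis), for measured genes of the 6 lists with a measured gene. Red points are at least 1.5-fold higher, blue points at least 1.5-fold lower, grey points neither. Grey bars are exact 95% intervals, dotted lines mark the threshold, and the rightmost gene drawn in each list is named. Ifi204 (33.4), Ddx60 (18.8) and Irf7 (15.2) lie farthest to the right.

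The interferon-induced list was higher in the Casp8-mutant library in each class that follows. In epithelial-like cells the 68 genes summed to 2339 CPM in the Mlkl-null and 17011 in the Casp8-mutant embryo, in stromal-like cells to 2725 and 19965, in myeloid-like cells to 10218 and 20019, and in endocrine-like cells to 2470 and 12352. Myeloid-like cells thus had the highest level of the list as well as of Zbp1 in the Mlkl-null embryo among these 4 classes. In haemoglobin-dominated barcodes, where haemoglobin RNA lowers the levels of other genes, the list was at 920 and 5273.

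Likeness to Zbp1 was measured as Pearson's r of log2(level + 10) over 12 library-by-class units, among 9061 genes with at least 100 UMIs. The units share 2 libraries and differ in depth, so r is a description. The 10 genes most like Zbp1 were B2m (r = 0.96), Psmb8 (0.95), Psmb9 (0.95), Slfn2 (0.94), Bst2 (0.92), Gm14303 (0.92), Xaf1 (0.91), Gm10059 (0.91), Ly6e (0.90) and Ifi27l2a (0.90). Of these 8 are on the interferon-induced list, and B2m, Psmb8 and Psmb9 belong to antigen presentation on class I molecules. That list holds 68 genes apart from the members, and how many of them are among the 9061 candidates was not counted. Among the other members Dhx58 was most like Zbp1 (0.84), followed by Eif2ak2 (0.59) and Ifih1 (0.52), and Mavs was least like it (-0.44). The closest genes to the other members were Trim30d for Dhx58 (0.95), Irgm2 for Ifih1 (0.86), Dbnl for Ddx58 (0.86), H2-K1 for Eif2ak2 (0.84), Dynlt1b for Adar (0.86), Smcp for Mavs (0.92) and the defensin pseudogene Defa-ps7 for Tlr3 (0.92). The Tlr3 value rests on 14 UMIs in all.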

How the data were processed

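Whole intestine was digested with 0.5 mL papain solution for 30 min, and some 10000 cells per embryo entered the 10x Chromium 3' v2 assay, per the labels' protocols, although small intestine is given as the source. The deposited values are UMI counts per gene and barcode. Cell Ranger 3.0.2, Seurat 3.0 and mm10 are named in the submitters' processing notes, without their roles. IDs were matched to GENCODE M21 (52403 of 52636).

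Cells with fewer than 500 genes (39 Mlkl-null and 139 Casp8-mutant barcodes) were left out, none exceeded 20% mitochondrial UMIs, and 4 and 2 doublets called by Scrublet were removed. Clusters came from scanpy 1.11.5 (3313 variable genes, 30 components, 15 neighbours, Leiden resolution 1), without the members, the fixed interferon-induced list, haemoglobin or sex-linked genes. A cluster took a class name when at least 3 markers and 40% of a list were found, a marker counting if 15% of the cells held it at 30% of its highest cluster mean. Erythroid names needed 20% haemoglobin. The naming rule was set after the clusters were seen, so class sizes may differ under other names. Fibroblast, smooth muscle and mesothelial names were joined as stromal.

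Levels are summed UMIs per 1000000 (CPM), ratios have 0.5 UMI added (not those of Zbp1 between classes of 1 embryo), and a call needs 1.5-fold and 20 UMIs over both libraries. Intervals (Poisson, conditional exact, Clopper-Pearson) are at 95%, and a fold given as a lower bound allows 3 counts for a 0. PCR duplicates are removed by UMIs. The code was tested on simulated data. The members and lists were chosen with earlier results of these data known. Named are all 8 members, Ripk3, Casp8 and Mlkl, the 3 highest and 2 lowest genes of each list, and the 10 genes most like Zbp1. A few other genes (Cflar, markers at 0, the interferons) were named to explain a count. The comparison of clusters within the Casp8-mutant epithelium was added after values were seen. One gene is not reported here. Alternatives are given in the closing section.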

Additional observations from a re-analysis of the deposited data

Results flagged for a closer look

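For Ddx58 the level in Casp8-mutant over that in Mlkl-null cells lay below 1 in myeloid-like cells (0.84, from 7 and 6 UMIs, interval 0.23 to 2.89) and above 1 in epithelial-like cells (2.21, 1.60 to 3.03). Adar likewise stood at 0.97 in myeloid-like cells (5 and 5 UMIs, 0.22 to 4.22) and at 3.29 in epithelial-like cells (2.57 to 4.22). With 1 embryo per genotype the difference was not tested for either gene, and each myeloid-like interval includes 1.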

How the results depend on the processing

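No paired analysis was possible because each genotype had 1 library, and for the same reason no replicate could be left out. The Zbp1 log2 ratio in epithelial-like cells was 5.93 and lay between 5.72 and 6.48 under 12 alternatives to the cell filter, clustering, scaling, thinning, averaging and UMIs added. Of the 8 members, 6 were higher under 13 alternatives and 7 with no minimum of UMIs. Mavs was no longer lower (0 genes) with cells thinned to 1000 UMIs, and its log2 ratio ranged from -1.73 to -0.47. Ratios of Eif2ak2 (0.96 to 1.90), Ddx58 (1.02 to 1.80) and Adar (1.54 to 2.08) kept their direction, as log2. The share of Casp8-mutant epithelial-like cells with Zbp1 was 33.8%, and it was 29.2% at resolution 0.5, where a cluster of mutant cells went unnamed, 16.2% thinned to 1000 UMIs and 21.8% thinned to 2000. Of the pathway genes 10 were lower, against 6 with averaged per-cell levels and 5 at 2-fold. Without the small-RNA-rich clusters 11 and 19, an alternative chosen after seeing the data, 14 were higher and 13 lower, beside 17 and 10. The share with any other sensor was 34.1% of cells with and 29.4% of cells without Zbp1, 64.8% and 53.4% at full depth, and 41.9% and 33.8% at 2000 UMIs. Thinned cells hold fewer UMIs by construction, and the cause of the other changes was not tested. Depth limits the myeloid-like and stromal-like values, where 7 of the 8 members had under 20 UMIs.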
